A study of Mus musculus with 15 samples.

Results

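The genes described here are 10 regulators and effectors of mTORC1 (mechanistic target of rapamycin complex 1), chosen by name: Mtor, Rptor, Rictor, Deptor, Ddit4, Tsc1, Tsc2, Tfeb, Tfe3 and Rragd. All 10 were found among the 20910 genes of a count table of cultured mouse retinal pigment epithelium (RPE) cells, called mRPE, and among the 25038 genes of a count table of mouse RPE/choroid. Reads had been counted per gene from poly(A) RNA-seq libraries, and the question was what loss of Prom1, which codes for the membrane glycoprotein prominin-1, does to RPE cells. The cultured set held 4 WT libraries, 3 libraries of the Prom1-KO line KO22 and 2 of the Prom1-KO line KO26, and the tissue set held 3 WT libraries and 3 labelled Prom1-KO.

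The cultured cells had been pooled from young adult C57/BL6J mice and immortalised with papillomavirus E6/E7 genes, and they grew in a medium with hydrocortisone. For the knockout lines, cells expressing Cas9 from a lentivirus under puromycin selection had received a synthetic guide to Prom1. The paper also describes Cas9 cells given a scrambled guide. It does not state whether the sequenced WT cells expressed Cas9 or had received that guide. KO22 and KO26 are single lines with separate deletions, so libraries of a line are repeats of that line and p-values measure only the spread between them, which may be technical. The study left both KO26 libraries out of its own RNA-seq analysis, since they remained outliers in a principal component analysis after batch correction. It proposed biological heterogeneity or technical anomalies as reasons. By qPCR and Western blot it did assay lines named KO22 and KO26.4. For the tissue, Prom1 fl/fl mice had been crossed with RPE65-Cre mice, in which an RPE gene's promoter drives the recombinase, and given tamoxifen by gavage. The labels do not give the age of these mice, nor whether the WT mice carried the floxed alleles or received tamoxifen.

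mTORC1 is a kinase complex on the lysosome that couples amino acids and growth factors to protein synthesis and holds back autophagy. The TSC complex switches off its activator Rheb, Rag GTPases bring it to the lysosome, and when it is active it keeps the transcription factors TFEB and TFE3 out of the nucleus. RPE cells digest shed photoreceptor tips each day in lysosomes, and TFEB and TFE3 are known as drivers of lysosomal genes. All of the values below are RNA levels, which give neither the activity of the kinase nor the place of TFEB and TFE3 in the cell.

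The guide is shown because the knockout lines had received it. It matched 1 site on chromosome 5 of GRCm39, the build the authors aligned to (mm39), at chr5:44213310-44213329 on the minus strand, inside exon 5 of the canonical Prom1 transcript (chr5:44213220-44213425). The site fell in an exon of 25 of the 34 Prom1 transcripts annotated by GENCODE. The guide is given 5′ to 3′, with the PAM read from the genome in capitals.
Prom1 guide: cgttgctgcaacaaatgcggCGG

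Promoter windows of 250 bases before the start site were read from RefSeq (GRCm38.p6), in which 9 of the 10 genes matched with 12 start sites, and Deptor was not matched. Mtor and Tsc1 are shown because each has 1 listed start and they moved in opposite directions in KO22. The Mtor window lies at chr4:148448332-148448581 on the plus strand and the Tsc1 window at chr2:28640983-28641232 on the plus strand, both in GRCm38.p6, and capitals mark CG dinucleotides.
Mtor: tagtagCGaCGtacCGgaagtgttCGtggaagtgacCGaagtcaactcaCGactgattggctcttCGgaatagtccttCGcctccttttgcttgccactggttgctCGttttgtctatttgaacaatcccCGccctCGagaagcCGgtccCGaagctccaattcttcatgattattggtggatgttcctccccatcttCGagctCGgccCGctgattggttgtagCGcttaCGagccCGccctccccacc
Tsc1: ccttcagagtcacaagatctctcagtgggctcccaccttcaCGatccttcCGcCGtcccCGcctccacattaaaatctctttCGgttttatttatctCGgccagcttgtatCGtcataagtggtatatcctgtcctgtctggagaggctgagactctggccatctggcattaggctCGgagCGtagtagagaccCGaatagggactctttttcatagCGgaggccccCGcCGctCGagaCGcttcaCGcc
The Mtor window holds 19 CG dinucleotides and the Tsc1 window 16, against a median of 6 over the 32851 mouse promoters of the same length. None of the 12 windows holds the E-box CACGTG, to which TFEB and TFE3 can bind, and 6.02% of all promoters hold it on either strand. The ATF4 element TGATGNAA, searched on both strands, was likewise found in none of the 12, and 3.45% of all promoters hold it. The absence of these letters says nothing about binding elsewhere.

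Total counts ran from 8076188 to 27537863 in the mRPE libraries and from 48154444 to 61766179 in the RPE/choroid libraries. Mitochondrial transcripts took 12.9% to 21.7% of the mRPE counts. They took 64.9% to 71.3% in 5 of the RPE/choroid libraries and 84.2% in replicate 3 of the libraries labelled Prom1-KO, which stood apart. The mRPE libraries came in batches named 8995 (1 library of each group) and 9262 (the others). Levels are given in CPM, counts per 1000000 counts of the library after scaling by the trimmed mean of M values (TMM). All 10 genes passed a filter of at least 5 counts in at least 3 libraries in each table, and the lowest count was 29, for Tfeb in KO26 replicate 2. A gene is said to have risen or fallen only at a Benjamini-Hochberg adjusted p under 0.05 over all genes tested with edgeR's quasi-likelihood test. A second limit, an absolute log2 fold change above 1.2, is the one named in the study's methods. Some of the study's volcano plots used a lower limit.

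The labels call every library RPE. Of 8 RPE marker genes 2 were listed for the mRPE cells, with a summed level of 6.79 to 8.54 CPM in WT, and Rpe65, Rlbp1, Lrat, Rgr, Ttr and Otx2 were not among the rows. Fibroblast markers were high in the cultured cells, with 4 of 5 listed and a sum of 10930.0 to 13920.0 CPM in WT, 4104 to 5869 CPM in KO22 and 15100.0 to 18040.0 CPM in KO26. In KO22 the collagen genes Col1a1 (1529 CPM against 4119 in WT, group means) and Col1a2 (1777 against 5873) and the growth factor receptor gene Pdgfra (487 against 1419) fell (edgeR), while Dcn, the decorin gene, stood at 1192 CPM against 828 in WT (adjusted p = 0.113). In KO26 Pdgfra fell and the other 3 did not pass. Endothelial markers, with 3 of 6 listed, summed to 152 to 237 CPM in WT, 2.08 to 5.25 CPM in KO22 and 56.6 to 74.8 CPM in KO26, mostly from the receptor gene Kdr. Prom1 itself was not among the rows for the cultured cells, WT included, so its RNA gives no check of the KO22 and KO26 labels. Transcripts of 4 Y-linked genes summed to 199 to 223 CPM in WT and to 2.33 to 24.6 CPM in KO22, against 153 and 202 CPM in KO26. The part of these shifts in the results below was not tested.

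In KO22 the gene set did not move one way. Mtor, Tfeb and Tfe3 rose by 1.44 to 1.67-fold, Deptor fell to 0.415 of its WT level, Tsc1 fell to 0.715, and the other 5 did not pass the test. Of the 10 genes, 3 rose where 26.9% of all 20455 genes tested rose, 2 fell where 26.1% of all genes fell, and 1 passed both limits where 25.2% of all genes did, so the number called was near the background of this comparison. The 5 called genes were also those whose KO22 and WT libraries did not overlap, as for 50.1% of all genes. The median log2 fold change was 0.36 over the 10 genes and -0.03 over all genes tested.

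Deptor gave the largest difference among the genes called. It codes for DEPTOR, a protein that binds mTOR and inhibits both of its complexes, and lies at chr15:54975710-55122667 (GRCm39, plus strand). The 4 WT libraries held 185, 186, 212 and 180.1 CPM, the 3 KO22 libraries held 61.1, 82.3 and 93.6 CPM, and KO26 replicates 1 and 2 held 65.0 and 122 CPM. Every knockout library was below every WT library. Deptor fell in KO22 by 1.27 ± 0.13 on the log2 scale (SE, edgeR, adjusted p = 5.17e-05) and was the only 1 of the 10 genes past both limits. It also fell in KO26, by 0.98 ± 0.19 on the log2 scale (edgeR, adjusted p = 0.0222). Between the lines the log2 difference was -0.28 ± 0.19 (KO22 minus KO26, edgeR, adjusted p = 0.279). Both knockout comparisons used the same WT libraries.

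The fall of Deptor in KO22 was called in all 14 alternative settings, with log2 fold changes from -1.42 to -1.12. It no longer passed the second limit without KO22 replicate 1 (-1.12), without WT replicate 1 (-1.15) or within batch 9262 alone (-1.13). The fall in KO26 was called in 9 of 15 settings. Its adjusted p was 0.184 without KO26 replicate 1, 0.0587 without WT replicate 1, 0.0645 without WT replicate 2, 0.0765 without WT replicate 3, 0.0568 without WT replicate 4 and 0.0903 without the batch term, while the log2 fold change stayed between -1.36 and -0.64. Within batch 8995 the log2 difference from WT was -1.59 in KO22 and -1.50 in KO26, and within batch 9262 it was -1.13 and -0.65. The median over the genes of chromosome 15 was 0.37 in KO22 and -0.01 in KO26, on the other side of 0 from Deptor in KO22.

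Over the 9 cultured libraries the genes whose log2 CPM was most like that of Deptor were Rmdn1 (Pearson r = 0.979) and Arg1 (r = 0.976), and 38 of 20736 genes had an r above 0.95. These values are a description over libraries that share their line, batch and depth. Rmdn1 had a mean of 21.0 CPM in WT, 10.1 in KO22 and 13.3 in KO26. Arg1, which codes for arginase, had a mean of 4.52 CPM in WT, 3.05 in KO22 and 3.25 in KO26.

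Mtor, at chr4:148533015-148642141 (plus strand), codes for the kinase shared by mTORC1 and mTORC2. It stood at 41.3, 39.3, 41.4 and 42.9 CPM in WT, 54.3, 68.8 and 67.0 CPM in KO22, and 51.7 and 34.6 CPM in KO26. All KO22 libraries were above all WT libraries, and the KO26 libraries lay on either side of WT. Mtor rose in KO22 by 0.62 ± 0.11 on the log2 scale (edgeR, adjusted p = 0.00104), called in all 14 alternative settings, where chromosome 4 had a median of 0.26. In KO26 the log2 difference was 0.06 ± 0.18 (edgeR, adjusted p = 0.886), positive in batch 8995 (0.32) and negative in batch 9262 (-0.25).

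Rptor, at chr11:119493731-119790402 (plus strand), codes for Raptor, the subunit that defines mTORC1 and binds its substrates. Its level was 33.1 to 36.1 CPM in WT, 29.9, 46.2 and 41.1 CPM in KO22, and 39.9 and 36.1 CPM in KO26. KO22 replicate 1 was the lowest of all 9 libraries and the other 2 KO22 libraries were the highest. The log2 difference from WT was 0.20 ± 0.13 in KO22 (edgeR, adjusted p = 0.223) and 0.20 ± 0.17 in KO26 (adjusted p = 0.535). Without KO22 replicate 1 the KO22 difference was 0.35 and passed the test (adjusted p = 0.00332), as it did without WT replicate 1 (0.33, adjusted p = 0.00549) and within batch 9262 alone (0.34, adjusted p = 0.00389). Within batch 8995 KO22 was below WT by a log2 difference of -0.14.

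Rictor, at chr15:6737860-6829882 (plus strand), codes for the subunit that defines mTORC2. It stood at 158, 172, 186 and 169 CPM in WT, 192, 199 and 181 CPM in KO22, and 98.4 and 156 CPM in KO26. The KO22 libraries overlapped with WT and both KO26 libraries were below all WT libraries. The log2 difference from WT was 0.16 ± 0.10 in KO22 (edgeR, adjusted p = 0.225), less than the median of 0.37 for chromosome 15, and -0.39 ± 0.16 in KO26 (adjusted p = 0.206). The KO26 difference passed the test in 1 of 15 settings, without KO22 replicate 1 (-0.37, adjusted p = 0.0482).

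**Figure D1:**
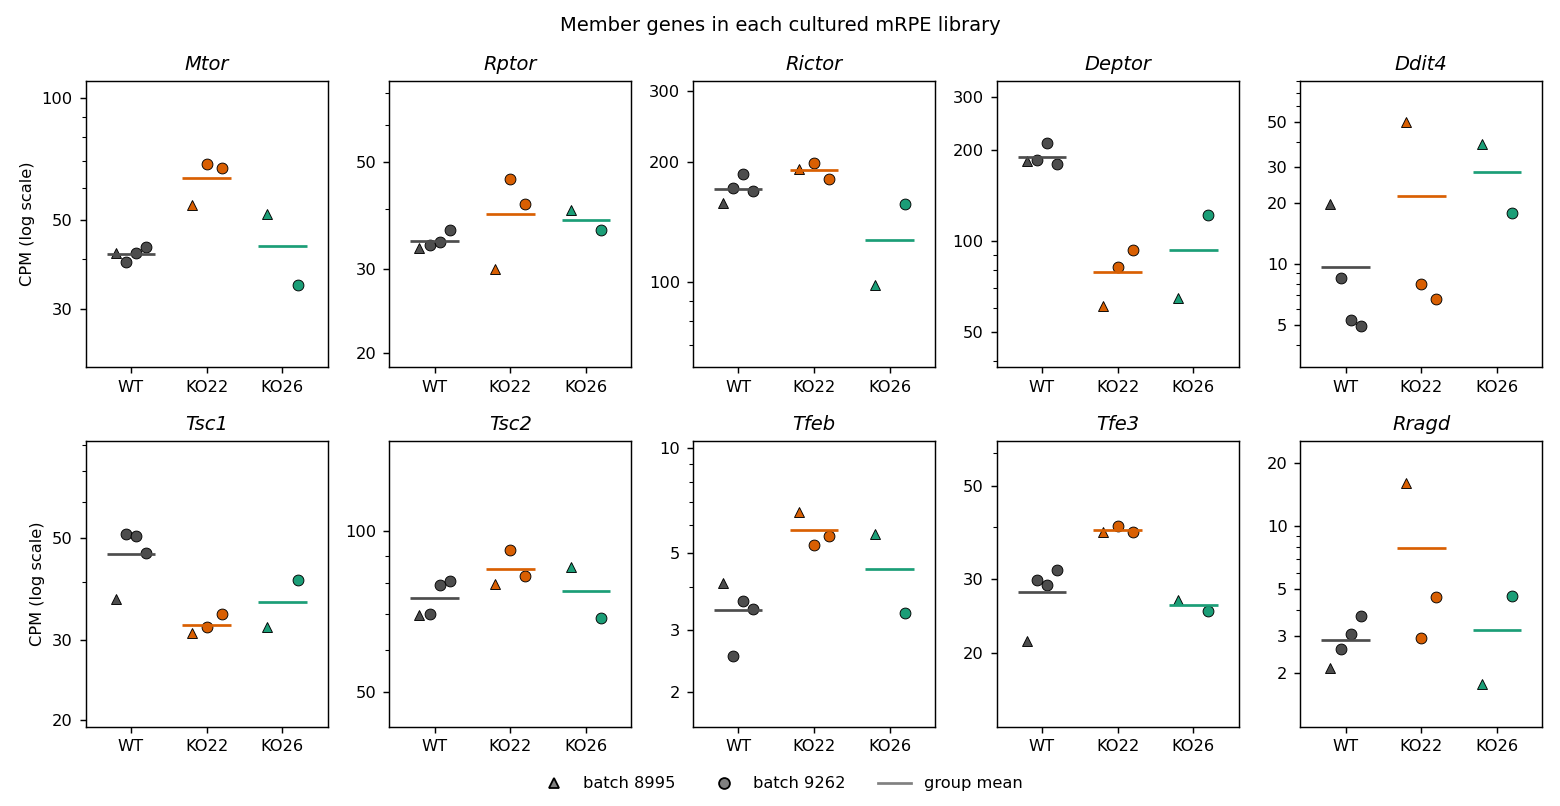
CPM (log scale) of the 10 genes in each cultured mRPE library, by group, with triangles for batch 8995, circles for batch 9262 and a bar at the group mean. Deptor is lower in every knockout library than in every WT library, Mtor, Tfeb and Tfe3 are higher in KO22 than in WT, and the triangle of Ddit4 is the highest point of each group.

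Tsc1 and Tsc2 code for hamartin and tuberin, the scaffold and the catalytic subunit of the complex that inactivates Rheb, and they did not move together. Tsc1, at chr2:28531061-28581179 (plus strand), stood at 36.8, 51.1, 50.6 and 46.3 CPM in WT, 31.0, 32.0 and 34.1 CPM in KO22, and 31.9 and 40.5 CPM in KO26. Every KO22 library was below every WT library, and KO26 overlapped with WT through WT replicate 1, the WT library of batch 8995. Tsc1 fell in KO22 by 0.48 ± 0.12 on the log2 scale (edgeR, adjusted p = 0.00658), called in all 14 alternative settings, while chromosome 2 had a median of 0.14. In KO26 the log2 difference was -0.28 ± 0.14 (adjusted p = 0.299).

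Tsc2, at chr17:24814783-24852192 (minus strand), stood at 69.7, 69.9, 79.3 and 80.5 CPM in WT, 79.7, 92.4 and 82.3 CPM in KO22, and 85.5 and 68.8 CPM in KO26. The groups overlapped. The log2 difference from WT was 0.19 ± 0.10 in KO22 (edgeR, adjusted p = 0.154) and 0.05 ± 0.15 in KO26 (adjusted p = 0.872). Of the annotated Tsc2 exon bases 12% overlap exons of Nthl1 and Pkd1 on the other strand, and the strand setting of the counting is not given in the sources used here. Exons of Rragd overlap a gene of the other strand over 7.57% of their bases, Deptor over 3.45% and Mtor over 1.1%. Rptor overlaps same-strand exons of Gm69672 over 6.11% and exons of Rptoros on the other strand over 0.624%, and the other 5 genes have no such overlap.

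Ddit4, at chr10:59785491-59788492 (minus strand), codes for REDD1, a stress-induced protein that acts through the TSC complex to inhibit mTORC1. It stood at 19.7, 8.57, 5.30 and 4.95 CPM in WT, 50.1, 8.0 and 6.75 CPM in KO22, and 39.3 and 17.8 CPM in KO26. The first library of each group, from batch 8995, was the highest of its group. The log2 difference between the batches (8995 minus 9262) was 1.61 in WT, 2.69 in KO22 and 1.12 in KO26. A batch difference in the same direction and at least this large was seen in 0.28% of the 20737 genes in WT, 0.0627% in KO22 and 5.82% in KO26.

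With the batch as a term, Ddit4 differed from WT by 0.61 ± 0.27 on the log2 scale in KO22 (edgeR, adjusted p = 0.0862) and by 1.2 ± 0.33 in KO26 (adjusted p = 0.0792), and neither passed. Within batch 8995 the log2 difference was 1.32 in KO22 and 0.98 in KO26, and within batch 9262 it was 0.25 and 1.47. The KO26 difference passed with DESeq2 (1.21, adjusted p = 0.0249), within batch 9262 alone (1.50, adjusted p = 0.00019) and without KO22 replicate 1 (1.26, adjusted p = 0.000493). The KO22 difference passed in 1 of 14 settings, without WT replicate 2 (0.83, adjusted p = 0.0146). Without the batch term the KO22 value was 1.12, the highest of its alternatives, and without WT replicate 1 it was 0.22. Chromosome 10 had a median of -0.54 in KO22 and 0.04 in KO26.

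Rragd, at chr4:32982984-33025899 (plus strand), codes for RagD, a Rag GTPase that recruits mTORC1 to lysosomes and is itself a known TFEB and TFE3 target gene. Its level was 2.11, 2.60, 3.04 and 3.73 CPM in WT, 16.1, 2.94 and 4.58 CPM in KO22, and 1.76 and 4.63 CPM in KO26. One library, KO22 replicate 1, stood above all of the others, and the other KO22 libraries overlapped with WT. The log2 difference from WT was 1.10 ± 0.50 in KO22 (edgeR, adjusted p = 0.0897) and 0.01 ± 0.67 in KO26 (adjusted p = 0.994). Within batch 8995 the KO22 difference was 2.67 and within batch 9262 it was 0.22. It passed the test with DESeq2 (1.04, adjusted p = 0.0495), without the batch term (1.44, adjusted p = 0.0414) and without KO22 replicate 2 (1.57, adjusted p = 0.04).

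Tfeb and Tfe3 code for bHLH-leucine zipper factors that mTORC1 phosphorylates. Tfeb, at chr17:48047837-48103348 (plus strand), stood at 4.09, 2.54, 3.63 and 3.44 CPM in WT, 6.57, 5.25 and 5.59 CPM in KO22, and 5.66 and 3.35 CPM in KO26. Counts ran from 29 to 122 per cultured library, so Tfeb was among the least deeply counted of the 10. All KO22 libraries were above all WT libraries, and Tfeb rose by 0.74 ± 0.20 on the log2 scale (edgeR, adjusted p = 0.0133). The call was lost without KO22 replicate 2 (0.72, adjusted p = 0.0531) and without KO22 replicate 3 (0.66, adjusted p = 0.0648). In KO26 the log2 difference was 0.29 ± 0.26 (adjusted p = 0.566).

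Tfe3, at chrX:7628761-7641444 (plus strand), stood at 21.4, 29.96, 29.2 and 31.6 CPM in WT, 38.9, 40.1 and 39.0 CPM in KO22, and 26.8 and 25.2 CPM in KO26. The KO22 libraries lay close together and above all WT libraries, and KO26 lay within the WT range. Tfe3 rose in KO22 by 0.53 ± 0.13 on the log2 scale (edgeR, adjusted p = 0.00653), called in all 14 alternative settings, with values from 0.37 to 0.56. The genes of chromosome X had a median of 0.20 there. In KO26 the log2 difference was -0.04 ± 0.17 (adjusted p = 0.909).

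Tested against each other, the 2 knockout lines differed at Mtor, Rictor and Tfe3, each higher in KO22 than in KO26. The log2 difference was 0.56 ± 0.19 for Mtor (edgeR, adjusted p = 0.0445), 0.57 ± 0.17 for Rictor (adjusted p = 0.0231) and 0.56 ± 0.17 for Tfe3 (adjusted p = 0.0293). Of the 10 genes, 3 were higher where 16.3% of 20737 genes tested were, 0 were lower where 18.1% were, and 0 passed both limits where 18.3% did. At an unadjusted p under 0.05 and with DESeq2 the same 3 genes were found. Over all 20737 genes tested, 9156 had such a p and DESeq2 called 7620. Mtor, Rictor and Tfe3 were also those whose KO22 and KO26 libraries did not overlap, as for 47.9% of all genes. Without KO26 replicate 2 the difference was 0.19 for Mtor (adjusted p = 0.482) and 0.38 for Tfe3 (adjusted p = 0.221), and without KO26 replicate 1 it was 0.31 for Rictor (adjusted p = 0.198). Leaving out a library ended the Mtor call for WT replicates 1, 2, 3 and 4 and KO22 replicates 2 and 3 too (adjusted p = 0.0553, 0.0609, 0.0736, 0.069, 0.0871 and 0.0955). It ended the Rictor call for WT replicate 2 (0.57, adjusted p = 0.0509) and KO22 replicate 2 (0.59, adjusted p = 0.0557), and the Tfe3 call for WT replicate 3 (0.56, adjusted p = 0.0527).

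In KO26 against WT, Deptor was the 1 gene of the 10 that fell, where 1.13% of 20737 genes tested fell. Of the 10 genes 0 rose, where 2.36% of all genes rose, and 0 passed both limits, where 1.92% did. At an unadjusted p under 0.05 there were 3 of the 10, Deptor, Ddit4 and Rictor, against 4163 of all 20737 genes tested. DESeq2 called Deptor and Ddit4, and 1600 of all genes. The median log2 fold change was 0.03 over the 10 genes and 0.03 over all genes tested. Deptor and Rictor were the 2 genes whose KO26 and WT libraries did not overlap, as for 24.7% of all genes.

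**Figure D2:**
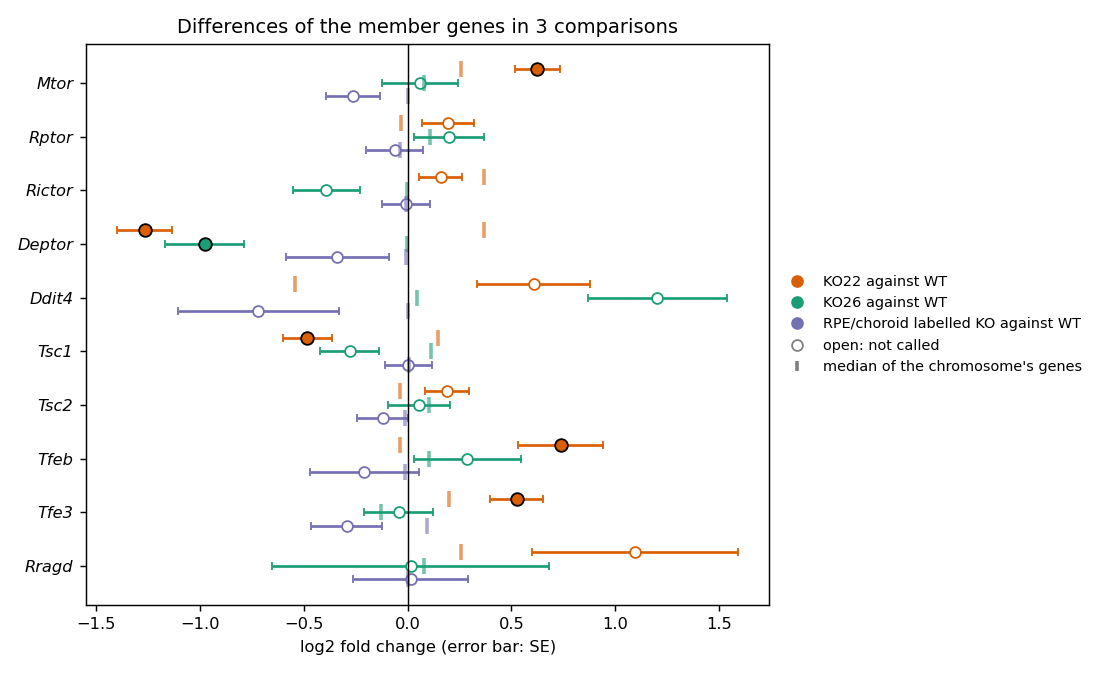
Log2 fold change (x axis, error bar SE) of each gene for KO22 against WT, KO26 against WT and RPE/choroid labelled KO against WT, filled where called at an adjusted p under 0.05, with a tick at the median of all genes tested on its chromosome. Deptor is called in both lines, Mtor, Tfeb, Tfe3 and Tsc1 in KO22, and 0 genes in the tissue.

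Levels of different genes were compared as CPM per kb of exon, with all annotated exons of a gene counted in its length. That length can exceed that of the mRNA in these samples, which was not measured. The order of the genes therefore depends on the annotation. In WT mRPE cells the order was Deptor (21.5 ± 1.6, SD, n = 4), Rictor (10.1 ± 0.68), Tsc2 (7.23 ± 0.57), Mtor (3.93 ± 0.14), Ddit4 (3.55 ± 2.5), Tsc1 (3.19 ± 0.46), Tfe3 (3.0 ± 0.48), Rptor (2.54 ± 0.097), Tfeb (0.499 ± 0.095) and Rragd (0.359 ± 0.086). The ranges of Deptor, Rictor and Tsc2 did not overlap. Those of neighbours in the order overlapped from Mtor down to Rptor, and those of Tfeb and Rragd overlapped too. In KO22 Rictor (11.2 ± 0.53, n = 3) was above Deptor (8.90 ± 1.9), with ranges that did not overlap.

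In RPE/choroid WT the per-kb levels lay closer together, from Deptor (2.79 ± 0.68 CPM per kb, n = 3), Mtor (2.58 ± 0.20), Rragd (2.11 ± 0.75) and Tsc2 (2.10 ± 0.16) to Tfeb (0.857 ± 0.076), Tfe3 (0.828 ± 0.13) and Rptor (0.765 ± 0.074). Rragd ranked 3 of 10 in tissue and 10 of 10 in WT mRPE cells. Tfe3 and Tfeb, whose ranges were far apart in WT mRPE cells, had overlapping ranges in tissue. The tables were normalised separately and no gene was tested between them.

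In the RPE/choroid comparison Prom1 was not called as lower. It stood at 48.7, 49.5 and 53.3 CPM in WT and 49.9, 48.1 and 35.5 CPM in the libraries labelled Prom1-KO, with a log2 difference of -0.18 ± 0.16 (edgeR, adjusted p = 0.824). The 8 RPE markers, all listed, summed to 1450.0 to 2355 CPM in WT and to 132 to 248 CPM in the libraries labelled Prom1-KO. Rpe65, the retinoid isomerase of the visual cycle, fell there by 6.06 ± 0.62 on the log2 scale (edgeR, adjusted p = 0.0191). Fewer RPE cells in a dissection and less RNA of these genes per cell cannot be told apart in bulk samples. Xist stood at 1320.0 and 1150.0 CPM in replicates 1 and 2 labelled Prom1-KO and at 1.79 to 3.60 CPM in the other 4 libraries, and 4 Y-linked genes summed to 80.2 to 101 CPM in those 4, so the groups were not matched for sex. Endothelial markers (6 of 6 listed) summed to 79.1 to 158 CPM in WT and 54.7 to 71.4 CPM in the other group, and rod markers (7 of 7) to 41.8 to 1119 and 19.7 to 531 CPM.

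Of the 10 genes, 0 rose and 0 fell in RPE/choroid (edgeR), where 0.0% of 24926 genes tested rose, 0.193% fell and 0.189% passed both limits. At an unadjusted p under 0.05 there were 0 of the 10, against 2068 of all genes, and DESeq2 called 0 of the 10 and 448 of all genes. The log2 differences ran from -0.72 for Ddit4 to 0.01 for Rragd.

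Mtor was the 1 gene whose groups did not overlap, at 29.5, 25.4 and 26.4 CPM in WT and 23.1, 24.5 and 20.0 CPM in the libraries labelled Prom1-KO, where 14.6% of all genes did not overlap. Its log2 difference was -0.26 ± 0.13 (edgeR, adjusted p = 0.675). Deptor stood at 20.1, 31.6 and 22.6 CPM in WT and 16.8, 15.9 and 26.1 CPM in the other group (-0.34 ± 0.25, adjusted p = 0.786). Without replicate 3 labelled Prom1-KO, the library with the most mitochondrial counts, the Deptor difference was -0.61, and none of the 10 genes passed in any of the 10 alternative settings.

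Ddit4 stood at 4.68, 2.71 and 3.91 CPM in WT and 2.39, 3.30 and 1.10 CPM in the libraries labelled Prom1-KO (log2 difference -0.72 ± 0.39, edgeR, adjusted p = 0.698). Tfeb stood at 6.42, 5.87 and 5.38 CPM in WT and 5.88, 6.25 and 3.08 CPM in the other group (-0.21 ± 0.26, adjusted p = 0.887), and without replicate 3 the difference was 0.03. Tfe3, which is X-linked, stood at 7.49, 9.08 and 6.60 CPM in WT and 6.89, 6.53 and 5.44 CPM in the other group (-0.29 ± 0.17, adjusted p = 0.716). Rptor, Rictor, Tsc1, Tsc2 and Rragd had log2 differences from -0.12 to 0.01.

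**Figure D3:**
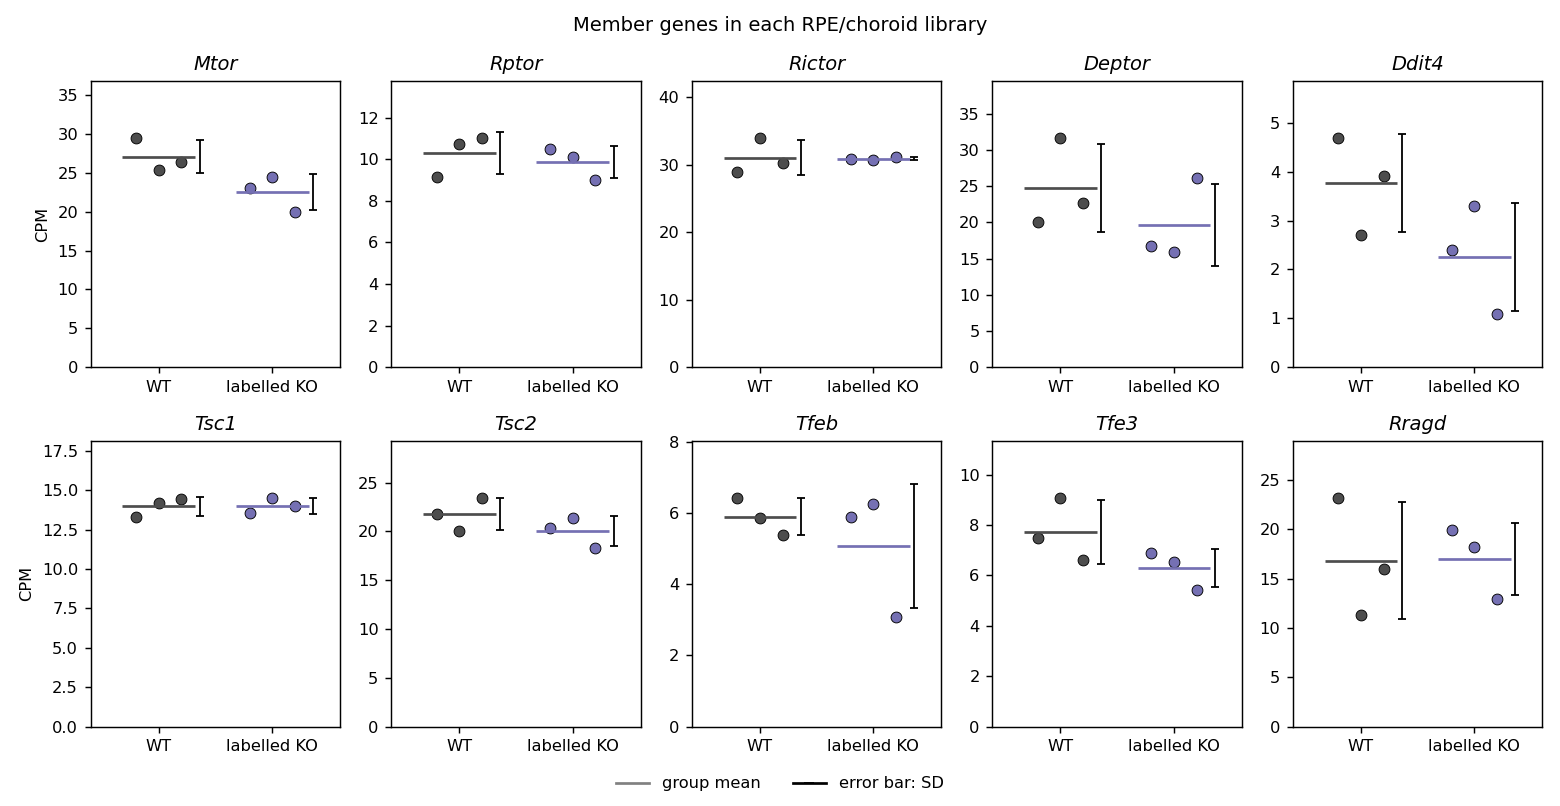
CPM of the 10 genes in each RPE/choroid library, with a bar at the group mean and an error bar of 1 SD. The groups overlap for every gene but Mtor, and replicate 3 of the labelled KO group is its lowest for Mtor, Ddit4, Tfeb and Tfe3, among others.

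Around the 10 genes, 122 other genes of the pathway and of programmes that act on it were grouped in 14 lists. In KO22 35 of the 121 tested rose and 36 fell, near the 26.9% of all genes that rose and the 26.1% that fell. In KO26 9 of the 121 rose and 3 fell, where 2.36% of all genes rose and 1.13% fell. In RPE/choroid 0 of 122 rose or fell with edgeR, 13 had an unadjusted p under 0.05 and DESeq2 called 2. In KO26 edgeR called 0 of the 58 genes tested in 8 of the lists, of which 13 had an unadjusted p under 0.05 and DESeq2 called 3. Over all 20737 genes tested in KO26, 4163 had such a p and DESeq2 called 1600. Each count below stands against the shares of all genes given above.

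Among other subunits of the mTOR complexes, 4 of 8 rose and 1 fell in KO22 (median log2 fold change 0.32). Tti2, a chaperone subunit for mTOR and related kinases, rose by 1.24 ± 0.11 on the log2 scale (edgeR, adjusted p = 1.75e-05), and Mlst8, the subunit common to both complexes, by 0.76 ± 0.22 (adjusted p = 0.0154). The Mlst8 call ended without WT replicate 3 or 4 or KO22 replicate 2 or 3 (adjusted p = 0.0526, 0.0554, 0.0671 and 0.0838). Prr5l, a partner of mTORC2, fell by 1.89 ± 0.31 on the log2 scale (edgeR, adjusted p = 0.000764). In KO26 0 of the 8 passed.

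Among Rheb, TSC and REDD partners, 2 of 5 fell in KO22 (median -0.03). Ddit4l, the REDD2 gene related to Ddit4, fell in KO22 from a WT level of 2.51 ± 0.48 CPM to 1.32 ± 0.45 CPM (log2 fold change -0.90 ± 0.31, edgeR, adjusted p = 0.0364) and rose to 11.2 ± 6.8 CPM in KO26 (1.98 ± 0.36, adjusted p = 0.0184). The lines moved in opposite directions, with a log2 difference of -2.86 ± 0.40 between them (KO22 minus KO26, edgeR, adjusted p = 0.000404). That difference was called in all 15 alternative settings, whereas the KO22 call of Ddit4l ended in 7 of 14 (without WT replicates 1, 2 or 4 or KO22 replicates 1 or 3 among them) and the KO26 call in 5 of 15 (without any 1 of WT replicates 1 to 4 or KO26 replicate 1). Txnip, a stress and glucose responsive gene, fell in KO22 (-1.57 ± 0.18, adjusted p = 9.53e-05).

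On the amino acid side, GATOR and KICSTOR subunits had 4 of 12 higher and 0 lower in KO22 (median -0.05), led by Seh1l (0.91 ± 0.10, edgeR, adjusted p = 7.69e-05) and Nprl2 (1.27 ± 0.16, adjusted p = 0.000172). Among amino acid sensors 3 of 6 fell and 1 rose (median -0.22). Sesn1, a leucine-sensing sestrin family gene, fell from 66.1 ± 4.5 to 14.9 ± 0.21 CPM (-2.14 ± 0.11, adjusted p = 9.91e-07), and Castor2, an arginine sensor family gene, fell by 1.81 ± 0.20 (adjusted p = 6.84e-05). In a separate list of 9 other Rag GTPase and Ragulator genes, 1 rose, 1 fell and 7 did not pass in KO22 (median -0.007). Lamtor3 rose (log2 fold change 0.66, edgeR, adjusted p = 0.000965). Slc38a9, the lysosomal arginine sensor counted in that list, fell in both lines (-1.66 ± 0.13 and -0.74 ± 0.16, adjusted p = 1.06e-05 and 0.0295). The KO26 call of Slc38a9 ended without any 1 of the WT or KO26 libraries. All 3 folliculin complex genes passed in KO22: Flcn (-0.77 ± 0.14) and Fnip1 (-0.62 ± 0.14) fell and Fnip2 (0.48 ± 0.11) rose. This complex is the activator of RagC and RagD, and in KO26 0 of its 3 genes passed.

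Of 16 PI3K, AKT and AMPK genes 7 rose and 5 fell in KO22 (median 0.08). Pik3r1, a regulatory PI3K subunit, fell by 1.16 ± 0.12 (edgeR, adjusted p = 4.22e-05) and Pik3cb, a catalytic subunit, rose by 1.38 ± 0.14 (adjusted p = 4.63e-05). Subunits of AMPK, the energy sensor that opposes mTORC1, split, with Prkaa1 up (0.79 ± 0.10, adjusted p = 0.000181) and Prkab2 down (-1.71 ± 0.12, adjusted p = 6.82e-06). In KO26 0 of the 16 passed.

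Of 12 substrates and translation genes 4 rose and 5 fell in KO22 (median -0.25). Grb10, an adaptor that mTORC1 stabilises, rose from 51.2 ± 11 to 191 ± 48 CPM (1.84 ± 0.10, edgeR, adjusted p = 1.49e-06). It fell in KO26 to 21.1 ± 7.3 CPM (-1.45 ± 0.14, adjusted p = 0.00139), and the difference between the lines was 3.29 ± 0.15 (adjusted p = 8.21e-07). Eif4ebp1, which codes for the translation repressor 4E-BP1, rose in both lines (1.34 ± 0.11 and 0.70 ± 0.14, adjusted p = 1.33e-05 and 0.024), with the KO26 call lost without any 1 of the WT libraries or KO26 replicate 1. Eif4e, the cap-binding factor it represses, rose in KO22 (1.52 ± 0.16, adjusted p = 4.7e-05), and Pdcd4, a translation inhibitor, fell (-2.11 ± 0.15, adjusted p = 6.43e-06).

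Of the other factors of the MiT/TFE family, Mitf rose in KO22 from 5.50 ± 1.7 to 14.3 ± 5.1 CPM (1.41 ± 0.33, edgeR, adjusted p = 0.0055), and its KO26 mean was 1.85 ± 0.32 CPM (-1.54 ± 0.44, adjusted p = 0.0864). The difference between the lines was 2.97 ± 0.45 (adjusted p = 0.000638). In RPE/choroid Mitf stood at 50.3 ± 5.2 CPM in WT and 28.5 ± 1.6 CPM in the libraries labelled Prom1-KO (-0.82 ± 0.13, adjusted p = 0.0815). Tfec was not among the rows of the mRPE table.

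Among 22 lysosomal and autophagy genes listed as TFEB and TFE3 targets (the CLEAR network), 5 rose, 9 fell and 8 did not pass in KO22, and their median was -0.20 on the log2 scale. The lysosomal membrane gene Lamp1 rose from 499.7 ± 21 to 861 ± 33 CPM (0.78 ± 0.11, edgeR, adjusted p = 0.000247), and Ppargc1a, a coactivator of mitochondrial genes, rose from a low level (0.479 ± 0.36 to 2.34 ± 0.25 CPM). The cathepsin gene Ctsf fell from 21.8 ± 4.3 to 1.23 ± 0.24 CPM (-4.07 ± 0.18, adjusted p = 6.35e-07). Gpnmb, a lysosomal glycoprotein gene, fell in both lines (-1.0 ± 0.19 and -1.92 ± 0.23, adjusted p = 0.0016 and 0.00422) and was the 1 of the 22 that passed in KO26.

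Among 9 genes listed as ATF4 targets, Atf4 included, 6 rose and 1 fell in KO22 (median log2 fold change 1.40) and 6 rose and 0 fell in KO26 (median 0.97). These genes serve amino acid synthesis and stress, and Ddit4 and Sesn2 are known as ATF4 targets too. Phgdh, the first enzyme of serine synthesis, rose in both lines (1.80 ± 0.17 and 0.97 ± 0.22, edgeR, adjusted p = 2.74e-05 and 0.0391), as did Asns, the asparagine synthetase gene (1.61 ± 0.20 and 1.55 ± 0.22, adjusted p = 0.000127 and 0.00859). Ddit3, which codes for CHOP, fell in KO22 (-0.57 ± 0.18, adjusted p = 0.0252). That call ended without WT replicate 3 or 4 or KO22 replicate 2 (adjusted p = 0.051, 0.0541 and 0.0518). Sesn2 rose in KO26 (0.99 ± 0.23, adjusted p = 0.0449). The KO26 calls of Phgdh and Sesn2 ended without any 1 of the WT libraries, without KO26 replicate 1 or KO22 replicate 2, and for Sesn2 without KO22 replicate 3 too. Those of the listed genes Atf4, Atf5 and Psat1 ended in 8, 6 and 6 of 15 alternative settings. Among these settings were the fit without the batch term and those without WT replicate 2, 3 or 4.

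Glucocorticoid target genes were counted because Ddit4 responds to glucocorticoids and the medium held hydrocortisone. In KO22 4 of 6 fell and 0 rose (median log2 fold change -1.03), with Tsc22d3, the GILZ gene, at 267 ± 27 CPM in WT and 45.1 ± 14 CPM in KO22 (-2.62 ± 0.20, edgeR, adjusted p = 9.56e-06) and Zbtb16 also lower at -2.11 ± 0.13 (adjusted p = 2.96e-06). In KO26 0 of 6 passed (median 0.03). Hypoxia targets, the other programme in which Ddit4 is known, had 1 of 8 higher (Vegfa, 1.45 ± 0.42, adjusted p = 0.0165) and 1 lower (Adm, -2.22 ± 0.30, adjusted p = 0.000226) in KO22 and 0 of 8 called in KO26. Of the 4 mTORC2 substrates 2 fell in KO22 and 0 passed in KO26.

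**Figure D4:**
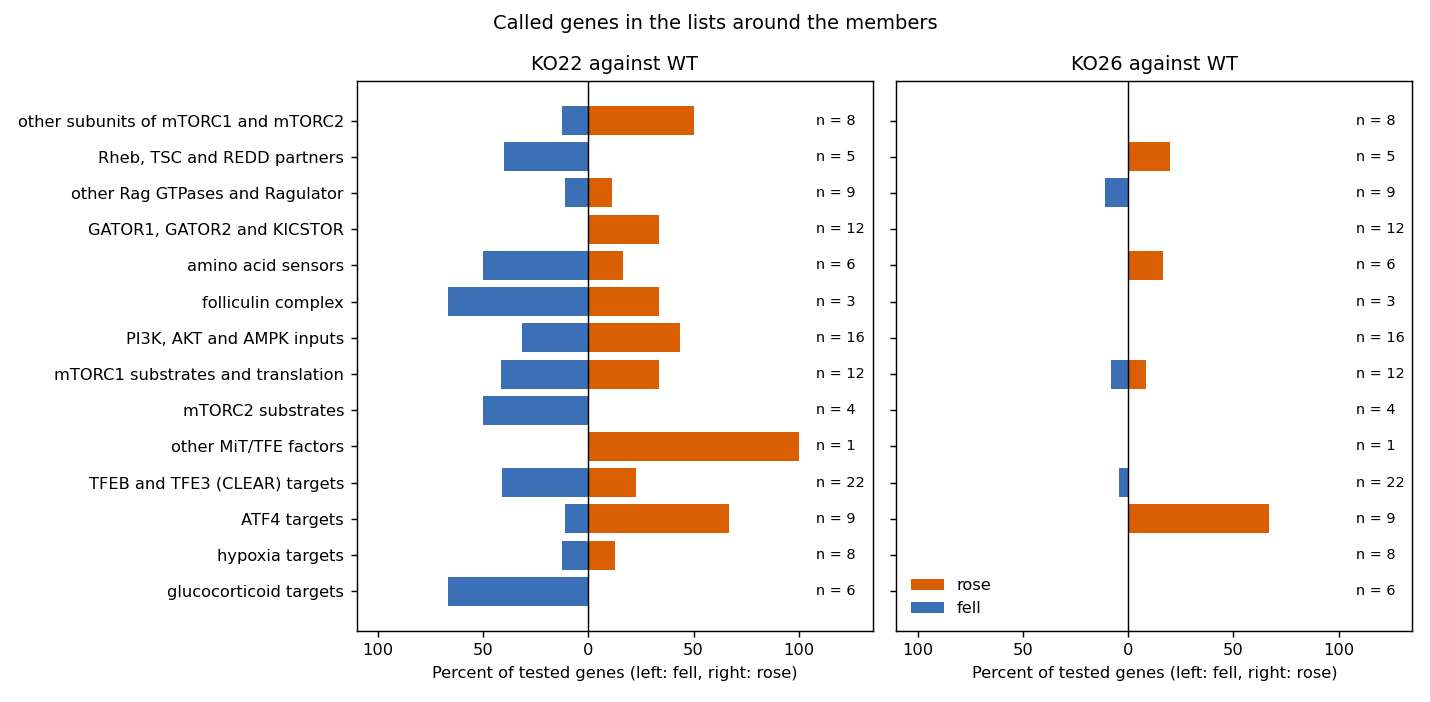
Percent of the tested genes of each list that rose (right) or fell (left) in KO22 and KO26 against WT, with the number tested at the right. In each line 6 of 9 ATF4 targets rose and in KO22 1 fell, 4 of 6 glucocorticoid targets fell in KO22, and of 22 CLEAR targets of TFEB and TFE3 5 rose and 9 fell in KO22, where 26.9% of all genes tested rose and 26.1% fell. In KO26 2.36% of all genes tested rose and 1.13% fell, and calls of ATF4 targets there were lost in some settings.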

How the data were processed

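Poly(A) RNA-seq of 9 mRPE and 6 RPE/choroid libraries was used. Per the labels and the methods, the authors trimmed reads with Trim Galore 0.6.7, aligned them with STAR to mm39 and counted reads per gene; the deposited raw count tables were analysed as they stand. Deposited normalized tables were not used. The library kit is stranded, and the strand setting of the counting is not given in the sources used here.

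Genes reaching 5 counts in 3 or more libraries were fitted with edgeR 4.0.16 (R 4.3.3; TMM, quasi-likelihood test, Benjamini-Hochberg over all genes tested). KO22 against WT used 7 libraries, and the KO26 and between-line comparisons used all 9, each with batch as a term. RPE/choroid used 6 libraries. CPM are TMM-scaled. Within-batch differences used a pseudocount of 0.5 CPM and no test. Gene positions and exon lengths came from GENCODE (GRCm39), with the exons of all annotated transcripts of a gene merged.

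The 10 genes and all lists were chosen with earlier results of these data known. By the naming rule, up to 3 genes that rose and 3 that fell per list were eligible, by smallest p, and the 10 genes were always named. Alternatives were DESeq2 1.42.0 (test and size factors), other count filters, no batch term, batch 9262 alone, one fit over 9 libraries, the study's second limit, and each library left out. On simulated counts of the KO22 comparison (20455 genes) the test recovered 172 of 200 genes changed by 2 on the log2 scale and 101 of 200 changed by 1. For KO26 against WT (20737 genes) it recovered 149 and 64, and in RPE/choroid (24926 genes) 126 and 26. False calls numbered 17, 13 and 11. Only these genes were changed and no batch effect was simulated. In the data 53.0% of genes were called in KO22, so these numbers do not give the sensitivity of that comparison. Intervals of log2 differences are SE from the edgeR fit, and those of CPM levels are SD over the libraries of a group. Depth is given by the total counts.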

Additional observations from a re-analysis of the deposited data

Results flagged for a closer look

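Deptor in WT mRPE replicate 3 stood at 212 CPM, far from the other 3 WT libraries (180.1 to 186 CPM), with a gap to the nearest of 0.831 of the group's range, above Dixon's critical value for 4 samples. Chance flags about 1 in 20 such groups, and without this library Deptor was still called in KO22 but no longer in KO26 (log2 fold change -0.96, edgeR, adjusted p = 0.0765). Effects on the same genes differed between the knockout lines, tested as the difference itself. KO22 minus KO26 was 0.562 on the log2 scale for Mtor (edgeR, adjusted p = 0.0445), 0.569 for Rictor (adjusted p = 0.0231) and 0.558 for Tfe3 (adjusted p = 0.0293). The call was lost in 8 of 15 alternative settings for Mtor, 5 for Rictor and 2 for Tfe3. These were 3 of the 10 genes, where 16.3% of all genes tested were higher in KO22 and 18.1% lower.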

How the results depend on the processing

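Among the 10 genes, and among the list genes that the naming rule made eligible, no called difference turned its direction in the settings run. Of those list genes, 42 of 48 in KO22, 1 of 11 in KO26 (Gpnmb) and 28 of 44 between the lines were called in every setting, a check chosen after seeing the data. Without the batch term the KO26 calls of Grb10 (edgeR, adjusted p = 0.0613) and Asns (0.103) were lost too. For KO22 against WT (5 of the 10 genes called), the number called was 4 to 6 in every setting but the study's second limit, which left 1. For KO26 against WT (1 called), 2 were called by DESeq2 and in batch 9262 alone, 0 without the batch term and with the second limit, and 0 to 3 when a library was left out. For KO22 against KO26 (3 called), 1 was called without the batch term, 5 in batch 9262 alone, 0 with the second limit, and 1 to 4 when a library was left out. In RPE/choroid the number stayed at 0. Over all genes, KO26 against WT gave 725 calls, against 1600 with DESeq2, 255 without the batch term, 2418 in batch 9262 alone and 137 to 3578 when a library was left out; RPE/choroid gave 48, against 448 with DESeq2 and 9 to 41 when a library was left out. The cause was not tested. No paired analysis was possible because replicate numbers only name libraries here.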
